A study of Mus musculus with 8 samples.

Results

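Cytosolic ribosomal protein genes were compared between exercise mice and control mice in muscle satellite cells (SCs), which are the resident stem cells of the muscle. The genes were chosen by name, as protein-coding genes whose symbol is Rpl, Rps or Rplp followed by a number, leaving out the Rps6k kinases. This gave 85 of the 22027 protein-coding genes and of the 52636 genes in all, with 52 large-subunit and 33 small-subunit names. Among them are 46 proteins of the large subunit, 30 of the small subunit, 8 close relatives that stand in for a ribosomal protein or resemble one (Rpl3l, Rpl7l1, Rpl10l, Rpl22l1, Rpl36al, Rpl39l, Rps27l and Rps27rt), and Rps19bp1, which binds the Rps19 protein and is not itself part of the ribosome.

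The mice were male C57B/6J animals, 10 weeks old when training began. Exercise mice trained for 4 weeks on a treadmill with a slope of 5 degrees, on 4 days per week, for 30 min per day at 12 m per min, and control mice stayed sedentary. About 800 SCs, taken from the tibialis anterior by cell sorting as lineage-negative cells with CD34 and alpha7-integrin on their surface, went into each of 4 control and 4 exercise libraries. Neither group carried a transgene or a drug treatment, and the labels only number the libraries, which the study describes as coming from separate mice. The p-values measure the spread between these libraries and take them as independent. Some libraries were much alike or lay between others, as given below, and p-values are too small where libraries share material.

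A ribosome is built from a small subunit, which reads the mRNA, and a large subunit, which joins the amino acids. Each holds ribosomal RNA and many different proteins, most of them needed in a single copy per ribosome, so cells usually keep the mRNAs of these proteins abundant and in similar amounts. In mammals these mRNAs begin with a run of C and T letters called a terminal oligopyrimidine (TOP) tract, through which mTOR, a kinase that responds to nutrients and growth factors, controls their translation. The resting state of SCs is known for low translation, which increases when the cells are activated.

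A stretch at or near the RefSeq start is therefore shown for 4 genes on which the results below turn, a pair that was higher in exercise and a pair that was lower. Each line holds 30 bases of the gene's own strand from the RefSeq annotation of GRCm38.p6. Capitals mark the longest run that starts with C and goes on with C or T, between 10 bases before and 50 bases after the RefSeq start. The run of Rpl10 ends with the last base shown and may be longer. Rps15 lies at chr10:80292448-80292477 on the forward strand and Rpl10 at chrX:74270836-74270865 on the forward strand. Rpl15 lies at chr14:18270969-18270998 and Rps18 at chr17:33955646-33955675, both on the reverse strand. Counted from the RefSeq start, the capitals begin 26 bases after it in Rps15, 42 bases after it in Rpl10, and at positions -4 in Rpl15 and -2 in Rps18. The deposited table places these starts elsewhere, inside the stretch shown for Rps15 and 24, 393 and 326 bases before the stretch in Rpl10, Rpl15 and Rps18, so the annotations differ in where these mRNAs begin.
Rps15: agcccgtaCTTCCTTTTCCgagtaaccgcc
Rpl10: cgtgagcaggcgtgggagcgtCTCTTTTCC
Rpl15: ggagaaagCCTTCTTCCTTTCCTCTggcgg
Rps18: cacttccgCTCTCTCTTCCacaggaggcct

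A run of C followed by at least 6 letters that are C or T, between 10 bases before and 50 bases after the annotated start and on the strand of the gene alone, was found in 48 of the 65 genes matched by symbol (73.8%). Over all annotated promoters of the same length it was found in 28.2% of 27025 genes. Among the matched genes it was present in 7 of the 9 that were lower in exercise, in 2 of the 4 that were higher and in 37 of the 47 that were tested and not called. Genes of each outcome thus held the run, which is a match of letters and not a measured transcript start.

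The deposited values are FPKM, the reads on a gene divided by the gene's length and by a size for the library, and the reads behind them could be recovered. Control libraries held 2339966 to 3013354 reads and exercise libraries 1011737 to 1200221. Reads fell on 5169 to 7307 genes in control and on 2348 to 3289 in exercise libraries, and 79 to 84 ribosomal protein genes had a read in each control library against 73 to 77 in each exercise library. The mitochondrial genome took 2.09% to 15.3% of the reads in control, 7.85% and 7.56% in exercise 1 and 2, 50.2% in exercise 3 and 68.7% in exercise 4.

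By reads, exercise 1 and 2 were the closest pair of a group, although the Pearson r of their log2 levels over these genes, 0.991, was matched by that of control 3 and 4, 0.991. The chi-square of their reads over the ribosomal protein genes, divided by its degrees of freedom, was 14.9, which is above sampling noise, and it was 96.3 or more in the other pairs. The share of reads of control 4 lay between those of control 1 and 3 for 74 of 84 genes with reads, and that of exercise 3 lay between those of exercise 1 and 4 for 69 of 78. All 8 libraries were kept as labelled, and the counts are also given with exercise 1 and 2 averaged as 1 sample and with control 4 and exercise 3 left out besides, which leaves 5 samples. Of 14 SC markers, Pax7, Itga7, Cdh15 and Calcr were listed at 0 in every library, although the cells were sorted on alpha7-integrin, the product of Itga7. The muscle fibre marker Tnnc2 was listed at 0 as well. Whether a gene listed at 0 was absent from the libraries or missed in the values was not tested. The summed level of the SC list was 34.3 to 85.8 FPKM in control and 31.9 to 93.9 in exercise libraries. The 12 muscle fibre markers summed to 30670 to 61560 FPKM in control and to 15670 to 58080 in exercise, 8 fibro-adipogenic markers to 1418 to 2227 and to 1517 to 2287, and 8 haematopoietic markers were listed at 0. The 8 endothelial markers, with Pecam1 and Cdh5 listed at 0, summed to 0.0925 to 2994 FPKM in control and 4.42 to 26.1 in exercise, the 6 smooth muscle and pericyte markers to 2.88 to 46.1 and 5.72 to 89.3, the 5 Schwann cell markers to 1.18 to 20.6 and 0 to 4.68, and the 5 erythroid markers to 0 to 119 and 0 to 1.56. Within these lists limma called Msc, Chodl, Mb, Myh1 and Kdr lower and Lum, Tek and Myh11 higher in exercise. The part of these differences in the results on ribosomal proteins was not tested, and in cells measured in bulk, fewer cells of a type and less RNA per cell cannot be told apart. Levels below are those of the libraries, and how much of their RNA came from SCs was not tested.

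Ribosomal protein mRNAs did not move as a block. Of the 80 genes tested, those with a mean of at least 1 FPKM, 17 were lower in exercise, 5 were higher and 58 were not called at a Benjamini-Hochberg adjusted p under 0.05 (limma on log2(FPKM + 1), adjusted over 4328 genes). The shares of 21.25% lower and 6.25% higher stood against 26.8% and 8.78% of all genes tested, so neither exceeded the share over all genes in this fit. The median log2 fold change was -0.89, between quartiles of -2.0 and 0.34 and extremes of -6.10 for Rpl15 and 4.22 for Rps28, while the median over all genes tested was -1.42. That order depended on the filter, since the medians were -0.77 and -0.32 with no filter and -0.80 for both with at least 1 FPKM in 4 libraries, and it also turned with array quality weights, to -1.26 and -1.16. Rpl7l1 and Rpl13a, among the 17, had no read in exercise and passed the filter through control alone. Setting them to 3 reads per library in exercise moved the median to -0.80.

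Levels in the libraries gave a similar count, but here both shares lay above those of all genes tested. In FPKM as deposited, each exercise library lay below each control library in 23 genes (28.75%, against 24% of all genes tested). Each lay above in 8 genes (10%, against 7.62%), and in 49 the groups overlapped. These counts were made on that scale alone and depend on it, as the reads of Rps15 and Rpl10 below show. Of the 17 lower genes, Rps18 and Rpl7l1 had overlapping groups. The 8 genes below without overlap that were not called were Rpl8, Rpl12, Rpl22, Rpl28, Rpl29, Rps3a1, Rps10 and Rps27l, and Rpl27a, Rpl35a and Rps27a lay above without being called.

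The calls depended on which libraries were used and on how the libraries were scaled. With exercise 1 and 2 averaged, limma called 10 lower and 3 higher (12.5% and 3.75%, against 9.51% and 4.05% of all genes). In the fit of 5 samples it called 0 of 81, as it called 0% of all genes, and 9 were lower and 2 higher at an unadjusted p under 0.05 (11.1% and 2.47%, against 7.42% and 3% of all genes). The lower share was above that of all genes also with quantile normalization (13.75% against 8.66%, with 6.25% against 13.1% higher), with no filter (14.29% against 6.71%, with 3.57% against 2.59% higher) and without exercise 4 (32.5% against 19.5%, with 7.5% against 13.1% higher), and in 9 of 23 fits in all, so whether it lay above or below depended on the fit. Scaling to all reads gave 23 lower and 2 higher (32.1% and 6.98% of all genes), scaling to a constant sum 25 and 2 (34% and 6.22%), and voom on the recovered reads 22 and 2 (32.4% and 9.2%). All 22 genes called with the values as deposited were tested and kept their direction in each of these.

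**Figure D1:**
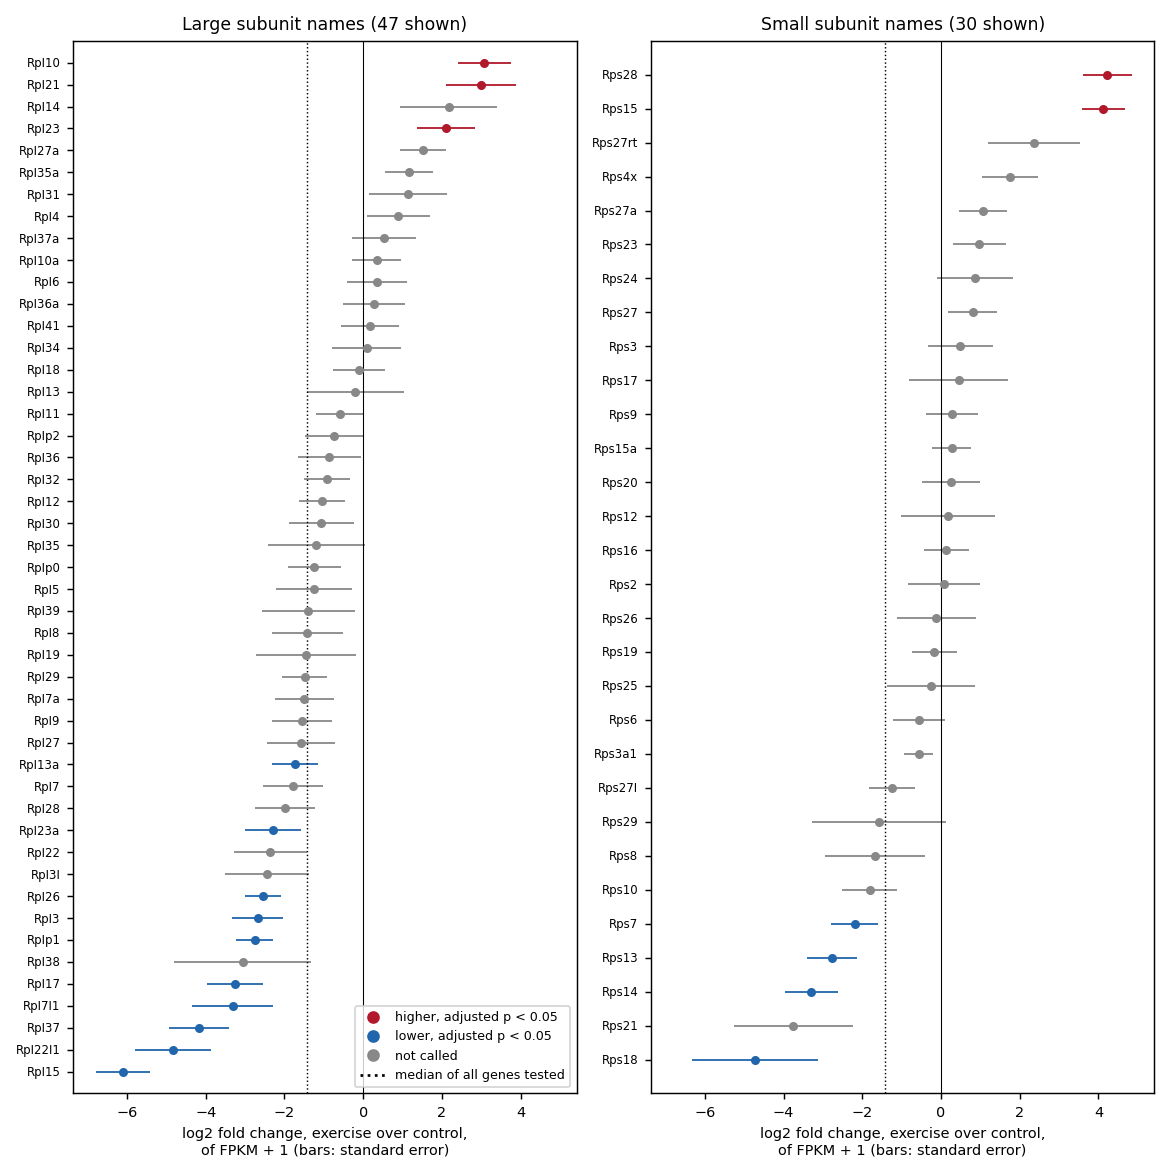
Log2 fold change of FPKM + 1, exercise over control, for 47 large-subunit and 30 small-subunit names, with the standard error as bars and colours for the limma call. Points run from -6.10 (Rpl15) to 4.22 (Rps28), and the dotted line marks the median over all genes tested, -1.42.

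The subunits are given separately. Of 48 large-subunit names tested, 11 were lower and 3 higher, with a median log2 fold change of -1.25 and with 34 values below 0 (22.9% and 6.25% called, against 26.8% and 8.78% of all genes). Of 32 small-subunit names, 6 were lower and 2 higher, with a median of -0.02 and with 16 values on either side of 0 (18.75% and 6.25% called). The difference between the subunits was not tested.

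Rps15, a protein of the small subunit's head that is needed for the export of the small subunit from the nucleus, had the largest rise in mean FPKM. Its level was 2420, 1589, 2408 and 2148 FPKM in control 1 to 4 and 64821, 67722, 34157 and 12051 FPKM in exercise 1 to 4. In FPKM as deposited, each exercise library lay far above each control library, with exercise 4 the lowest of them. This separation depends on the scaling. By all reads, exercise 4 had 2188 of 1155592 on Rps15, a smaller share than the 5922 of 3013354 in control 3. Outside the mitochondrial genome it had 2188 of 362038, a larger share than the 5922 of 2551338 in control 3. The mean was 20.9-fold higher in exercise, and the log2 fold change was 4.12 with a standard error of 0.55 (limma, Benjamini-Hochberg adjusted p = 0.00113; exact two-sided permutation p = 0.0286, the smallest that 4 libraries against 4 allow). The gene lies at chr10:80292453-80294114 on GRCm38 (ENSMUSG00000063457).

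Rps28, a small protein that lies near the path of the mRNA out of the small subunit, was low in control and moderate in exercise. It had 53.9, 25.9, 27.3 and 33.3 FPKM in control 1 to 4 and 878, 914, 614 and 351 FPKM in exercise 1 to 4. The groups were again widely apart in FPKM as deposited. The log2 fold change was 4.22 with a standard error of 0.62 (limma, Benjamini-Hochberg adjusted p = 0.00173), and no pseudogene of Rps28 is in the table.

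Rpl10, which joins the large subunit late in its assembly, had 1176, 422, 494 and 557 FPKM in control 1 to 4 and 9408, 9623, 5030 and 1523 FPKM in exercise 1 to 4. In FPKM as deposited, exercise 4 stood close above control 1, and the other exercise libraries were well above all controls. By all reads, exercise 4 had 901 of 1155592 on Rpl10, a smaller share than the 5536 of 2339966 in control 1. Outside the mitochondrial genome it had 901 of 362038 against 5536 of 2290971, a slightly larger share. The log2 fold change was 3.08 with a standard error of 0.67 (limma, Benjamini-Hochberg adjusted p = 0.0104). Rps15, Rps28 and Rpl10 were called higher without each library in turn, and with exercise 1 and 2 averaged. Rpl10 lost its call when scaled to all reads, to a constant sum or with voom, with limma Benjamini-Hochberg adjusted p-values of 0.0796, 0.119 and 0.108. In the fit of 5 samples their log2 fold changes were 3.75, 4.02 and 2.60, with limma Benjamini-Hochberg adjusted p-values of 0.199, 0.362 and 0.471.

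The other rises were in a pair of large-subunit genes and were less firm. Rpl21 had 4.49, 10.1, 58.6 and 21.5 FPKM in control and 296, 161, 94.2 and 69.4 in exercise, and its log2 fold change was 2.99 with a standard error of 0.89 (limma, Benjamini-Hochberg adjusted p = 0.0327). Rpl21 has 14 pseudogenes in the table, which held 3816 reads over all libraries against 4188 of the gene, and between which and the gene reads may be split. Rpl23, which lies at the face between the subunits, had 14.8, 84.9, 87.0 and 63.4 FPKM in control and 228, 230, 169 and 294 in exercise, with a log2 fold change of 2.11 and a standard error of 0.73 (limma, Benjamini-Hochberg adjusted p = 0.0476). The call of Rpl21 was lost without control 2, control 4 or exercise 1, 2 or 3, and that of Rpl23 was lost without any library other than control 1.

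The deepest fall was in Rpl15, a core protein of the large subunit. Its level was 161, 231, 154 and 118 FPKM in control 1 to 4 and 2.42, 2.28, 1.82 and 0 FPKM in exercise 1 to 4. These rest on 916 to 1749 reads per control library and on 10, 9, 5 and 0 reads in the exercise libraries, where the 0 reads of exercise 4 allow up to 4.21 FPKM. The log2 fold change was -6.10 with a standard error of 0.69 (limma, Benjamini-Hochberg adjusted p = 0.000668). Rpl15 shares 105 exon bases with Nkiras1 on the opposite strand, which had 271 reads over all libraries. In the fit of 5 samples the log2 fold change was -6.62 (limma, Benjamini-Hochberg adjusted p = 0.175).

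Among the other large-subunit genes that fell, Rpl37, which binds the ribosomal RNA, had 1553, 492, 304 and 519 FPKM in control and 18.6, 28.2, 23.9 and 80.0 in exercise (log2 fold change -4.17; limma, Benjamini-Hochberg adjusted p = 0.00451). Rpl17, at the tunnel through which the new chain leaves, had 193, 104, 82.6 and 89.4 FPKM in control and 17.7, 18.6, 8.15 and 4.48 in exercise (log2 fold change -3.26; adjusted p = 0.0104), with 1169 reads over all libraries against 2050 on its pseudogenes, between which reads may be split. The exercise libraries lay below the lowest control library in both genes. Rpl26, another protein near the tunnel, had 3206, 3824, 2467 and 2298 FPKM in control and 489, 491, 372 and 678 in exercise, a difference with the small standard error of 0.45 around a log2 fold change of -2.54 (limma, Benjamini-Hochberg adjusted p = 0.00426). Rpl3, which reaches towards the catalytic centre, had 131, 121, 83.0 and 79.1 FPKM in control and 23.2, 21.9, 12.1 and 7.79 in exercise (log2 fold change -2.68; adjusted p = 0.0164).
The fall of Rpl3 was no longer called without control 4 or without exercise 3. Rpl23a fell by 2.28 on the log2 scale (limma, Benjamini-Hochberg adjusted p = 0.0364), and its call was lost in 6 of the 8 fits that left out a library. It had 1251 reads against 2079 on its pseudogenes, so its reads may be split too.

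Among the small-subunit genes that fell, Rps14, a protein of the platform, had 2143, 2059, 2245 and 1894 FPKM in control 1 to 4 and 105, 131, 190 and 755 in exercise 1 to 4 (log2 fold change -3.30, standard error 0.67; limma, Benjamini-Hochberg adjusted p = 0.0080). The control libraries were tightly grouped, and exercise 4 was the highest of its group. Rps13 had 492, 1414, 1190 and 826 FPKM in control and 204, 190, 129 and 61.9 in exercise (log2 fold change -2.77; limma, Benjamini-Hochberg adjusted p = 0.0123). Its groups did not overlap either, but here exercise 4 was the lowest library. Rps7 fell by 2.19 on the log2 scale (limma, Benjamini-Hochberg adjusted p = 0.0248) and lost its call in 6 of the 8 fits that left out a library.

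Rps18, a protein of the head that touches the large subunit, shows what a single library can do to such a call. It had 2822, 303, 521 and 819 FPKM in control 1 to 4 and 3.12, 2.26, 103 and 536 in exercise 1 to 4. Exercise 1 and 2 were nearly without it and exercise 4 lay between control 3 and control 4. The log2 fold change was -4.72 with a standard error of 1.60 (limma, Benjamini-Hochberg adjusted p = 0.0450; exact two-sided permutation p = 0.0857), and it was called without exercise 4 and in none of the other 7 fits that left out a library. It shares 156 exon bases with Vps52 on the opposite strand, which had 3 reads over all libraries.

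**Figure D2:**
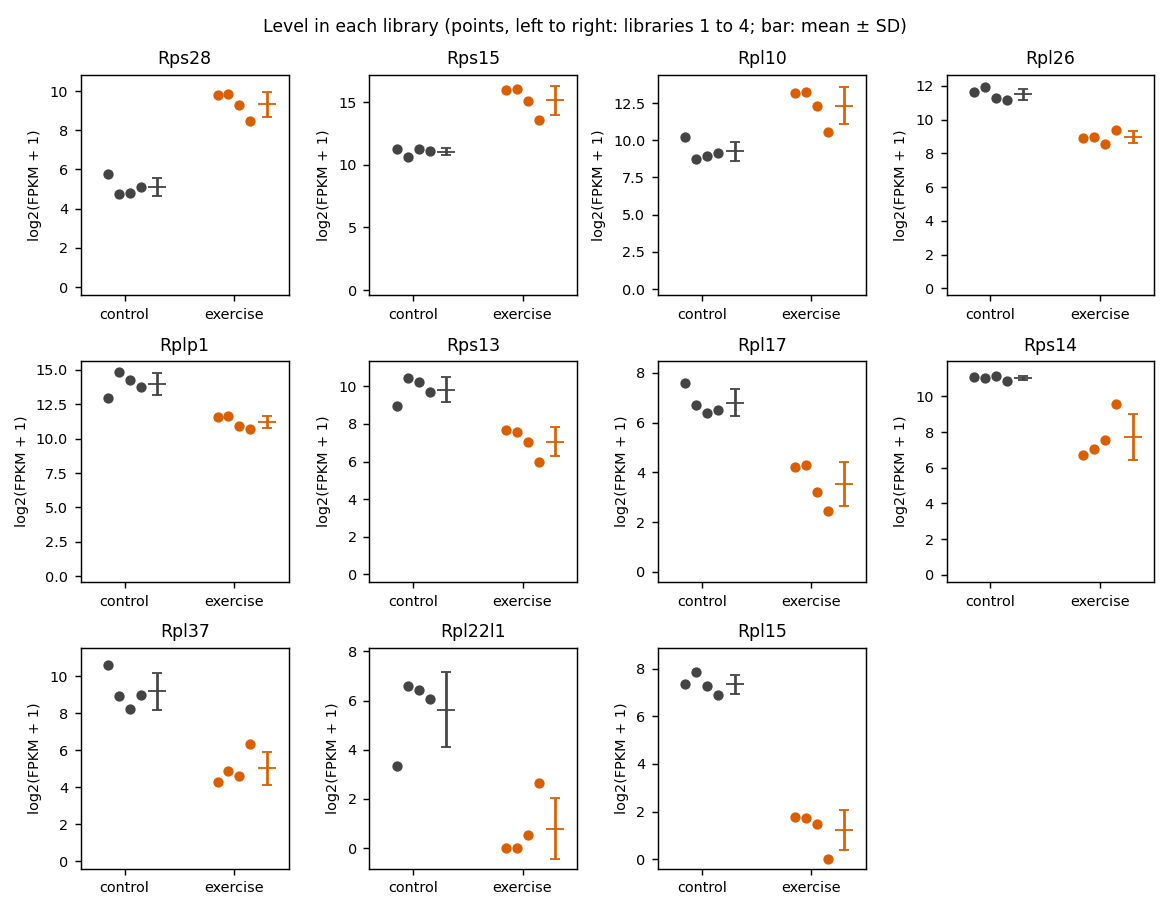
Log2(FPKM + 1) in each library for 3 higher and 8 lower genes that were called with all libraries and without each library in turn, with points from library 1 to 4 of each group and the mean with the SD beside them. On this scale of FPKM as deposited, the groups do not overlap in any of the 11 panels, and exercise 4 is the highest or lowest of its group in each.

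The stalk of the large subunit recruits the translation factors that drive each step, and its proteins Rplp0, Rplp1 and Rplp2 bind one another. Rplp1 was the most abundant ribosomal protein mRNA of the control libraries by mean level, with 8063, 28506, 19988 and 14042 FPKM, and had 3054, 3137, 1920 and 1690 FPKM in exercise 1 to 4. Every exercise library was below every control library, with a log2 fold change of -2.75 and a standard error of 0.47 (limma, Benjamini-Hochberg adjusted p = 0.0034). Rplp0, the base of the stalk, had 564, 1133, 804 and 624 FPKM in control and 183, 191, 281 and 1033 in exercise, and Rplp2 had 115, 622, 570 and 406 and 158, 179, 155 and 476. Neither was called, with log2 fold changes of -1.24 and -0.75 and limma adjusted p-values of 0.153 and 0.406, and their groups overlapped, with exercise 4 the highest exercise library for both. Without exercise 4, Rplp0 was called lower (limma, Benjamini-Hochberg adjusted p = 0.00973). Among the 14 alternatives other than leaving out 1 library, Rplp0 was called in 4 and Rplp2 in 1.

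Further abundant genes showed no call. Rps3a1 had 4407, 7514, 6097 and 4781 FPKM in control and 4017, 4211, 2732 and 4308 in exercise (log2 fold change -0.57; limma, Benjamini-Hochberg adjusted p = 0.218). Each exercise library lay below each control library on this scale. Rps4x, the X-linked copy of a small-subunit gene, had 521, 1937, 1358 and 956 FPKM in control and 1861, 1867, 3596 and 13607 in exercise (1.75; adjusted p = 0.0781). Rpl4, which lines the exit tunnel, had 671, 1333, 1004 and 860 in control and 3692, 3933, 2056 and 309 in exercise (0.90; adjusted p = 0.364). Exercise 4 was thus the highest library for Rps4x and the lowest for Rpl4. Without exercise 4, Rpl4 was called higher, with a log2 fold change of 1.725 (limma, Benjamini-Hochberg adjusted p = 0.00955). Rpl27 ranged from 2081 to 7930 FPKM in control and from 174 to 2399 in exercise, Rps27 from 666 to 2108 and from 1128 to 4541, and Rpl38 from 24.9 to 5616 and from 30.9 to 979.5, with limma adjusted p-values of 0.155, 0.292 and 0.168.

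None of 4 genes also known for links to signalling, to ubiquitin or to p53 was called. Rps6, the substrate of the S6 kinases downstream of mTOR, had 102, 260, 249 and 190 FPKM in control and 90.5, 96.0, 102 and 295 in exercise (log2 fold change -0.56; limma, Benjamini-Hochberg adjusted p = 0.491). Rps27a, which is made as a fusion with ubiquitin, had 89.5, 60.9, 62.4 and 56.5 FPKM in control and 121, 112, 117 and 246 in exercise. In FPKM as deposited its groups did not overlap, and the log2 fold change of 1.07 was not called (limma, Benjamini-Hochberg adjusted p = 0.164). Rpl5 and Rpl11, which with the smallest RNA of the large subunit can bind the p53 regulator Mdm2, were chosen after their values were seen and were not called, with log2 fold changes of -1.25 and -0.58 and limma adjusted p-values of 0.299 and 0.439. With quantile normalization the value of Rpl11 turned to 1.14.

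Of the 8 relatives, 5 passed the filter. Rpl22l1, the relative of Rpl22, had 9.21, 96.9, 85.3 and 66.7 FPKM in control 1 to 4 and 0, 0, 0.453 and 5.23 in exercise 1 to 4 (log2 fold change -4.82, standard error 0.97; limma, Benjamini-Hochberg adjusted p = 0.00747). The exercise values stand for 0, 0, 1 and 3 reads. Rpl7l1 had 12.2, 0, 31.1 and 22.1 FPKM in control and no read in exercise. With 3 reads allowed in each exercise library, it was at least 10.2-fold lower by means. It was called (limma, Benjamini-Hochberg adjusted p = 0.0361) although control 2 had no read either. It passed the filter through its control libraries alone, so the call is no support for the fall. The call was kept in 1 of the 8 fits that left out a library, and was lost with exercise 1 and 2 averaged (limma, Benjamini-Hochberg adjusted p = 0.0817) and with quantile normalization (0.0681). Rpl3l, a form found mainly in muscle and heart, had 54.9, 5.96, 14.2 and 16.8 FPKM in control and 0.728, 0, 2.20 and 21.1 in exercise, and Rps27l had 183, 244, 203 and 156 and 110, 114, 50.8 and 68.0. Neither passed the threshold, with limma adjusted p-values of 0.0952 and 0.118. Without exercise 4, Rpl3l was called lower (limma, Benjamini-Hochberg adjusted p = 0.0163). Among the 14 alternatives other than leaving out 1 library, Rpl3l was called in 4 and Rps27l in 1. Rps27rt ranged from 17.5 to 340 FPKM in control and from 171 to 3748 in exercise (limma, Benjamini-Hochberg adjusted p = 0.131).

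Rpl13a, also known as a repressor of translation when it is free of the ribosome, was listed at 0.206, 1.85, 5.21 and 4.51 FPKM in control and at 0 in each exercise library. It was at least 1.48-fold lower by means with 3 reads allowed per library, and was called (limma, Benjamini-Hochberg adjusted p = 0.0455). It passed the filter through its control libraries alone, so the call is no support for the fall. The call was kept in 1 of the 7 fits without a library that tested it, and was lost with exercise 1 and 2 averaged (limma, Benjamini-Hochberg adjusted p = 0.0998) and with quantile normalization (0.155). Under the filter stayed Rpl10l, with no read in any library, and Rpl24, Rpl36al, Rpl39l and Rps19bp1, which had no read in exercise and at most 5.77 FPKM in a control library. No fold is given for these, and absence cannot be told from low level at this depth.

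The mean share of reads taken by ribosomal protein genes was higher in exercise when mitochondrial reads were set aside, with most of the difference on Rps15. Outside the mitochondrial genome they took 7.23%, 11.5%, 11.6% and 10.2% of reads in control 1 to 4 and 18.1%, 18.5%, 15.7% and 9.19% in exercise 1 to 4, with 95% Wilson binomial intervals of at most 0.094 points to each side, which cover counting error alone because amplification copies molecules. The means were 10.1% ± 2.04 (SD, n = 4) and 15.4% ± 4.31 (SD, n = 4). Rps15 alone took 1.13% to 2.15% of the reads on these genes in control and 38.6%, 39.3%, 25.5% and 6.58% in exercise 1 to 4. Without Rps15 the means were 9.94% ± 2.02 and 10.7% ± 1.40, and the ranges of the groups overlapped. Over all reads, mitochondrial ones included, the ribosomal protein genes took 9.02% ± 1.39 in control and 11.1% ± 6.98 in exercise, with 16.7%, 17.1%, 7.80% and 2.88% in exercise 1 to 4, and without Rps15 the order turned, to 8.85% and 7.28%.

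**Figure D3:**
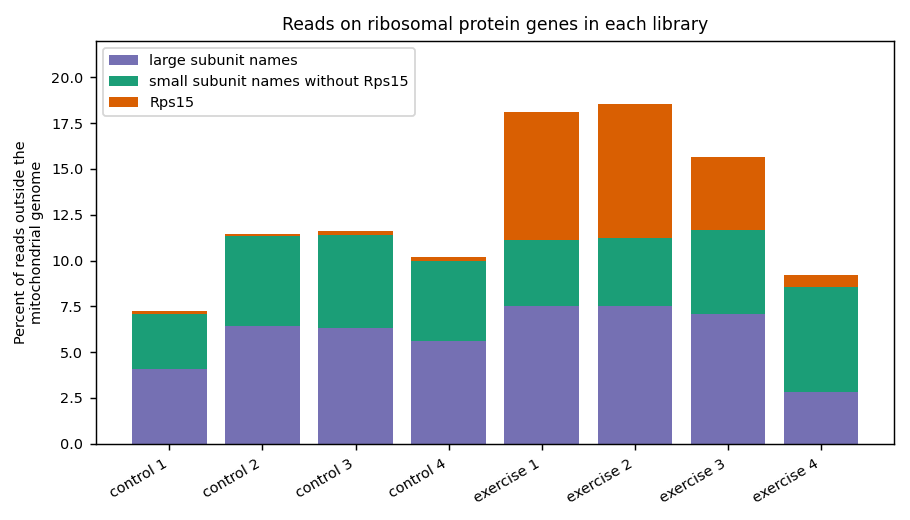
Percent of reads outside the mitochondrial genome that fell on ribosomal protein genes in each library, stacked as large-subunit names, small-subunit names without Rps15, and Rps15. The total is 7.23% to 11.6% in control and 9.19% to 18.5% in exercise, and the band of Rps15 is widest in exercise 1 and 2.

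The reads on these genes were held by fewer of them in exercise. Reads as a whole also fell on fewer genes there (2348 to 3289 against 5169 to 7307). No such count is given without Rps15, which held 6.58% to 39.3% of the reads on these genes in exercise. To reach 50% of the reads on ribosomal protein genes took 7 to 9 genes in control and 2 to 5 in exercise libraries, and the 10 leading genes held 53.1% to 63.8% and 68.6% to 83.9%. Levels, which are per length, spanned a wide range in both groups. In the control libraries the 46 large-subunit proteins had a median of 146 FPKM, from 0.246 for Rpl24 to 17650 for Rplp1, and the 30 small-subunit proteins a median of 327 FPKM, from 17.3 for Rps24 to 5700 for Rps3a1. In the exercise libraries the medians were 148 and 215 FPKM, with Rpl10 (6396) and Rps15 (44690) the highest. Across the 80 genes, which share libraries, the mean log2 levels of control and exercise had a Pearson r of 0.74 and a Spearman rho of 0.70.

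Exercise 4 stood apart from the other exercise libraries. The median absolute log2 difference in log2(FPKM + 1) over the genes was 1.61 to 2.05 in pairs with exercise 4 and 0.11 to 0.67 among exercise 1 to 3, against 0.36 to 0.98 among the control libraries. The median SD over the libraries of a group was 0.49 on the log2 scale in control and 1.01 in exercise, and it was the larger in exercise for 57 of the 85 genes. Between exercise 4 and exercise 1, 31 genes were over 4-fold higher and 14 over 4-fold lower, and for 43 of these 45 exercise 3 lay between. These counts depend on the scaling: with FPKM rescaled to reads outside the mitochondrial genome, a scale chosen after seeing the data, 18 genes were over 4-fold higher and 21 over 4-fold lower. The pairs with exercise 4 then differed by 1.0 to 1.94, exercise 1 to 3 by 0.11 to 0.66 and the controls by 0.30 to 1.19. The median SD was 0.61 in control and 0.93 in exercise, and it was the larger in exercise for 48 of the 85 genes. Examples chosen after their values were seen are Rps12, with 155, 131, 1477 and 7460 FPKM in exercise 1 to 4 against 485 to 968 in control, and Rpl14, with 109, 128, 1063 and 5597 against 47.3 to 203. In both, exercise 1 and 2 lay within or below the control range and exercise 3 and 4, the libraries with the highest mitochondrial share of reads, lay above it.

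**Figure D4:**
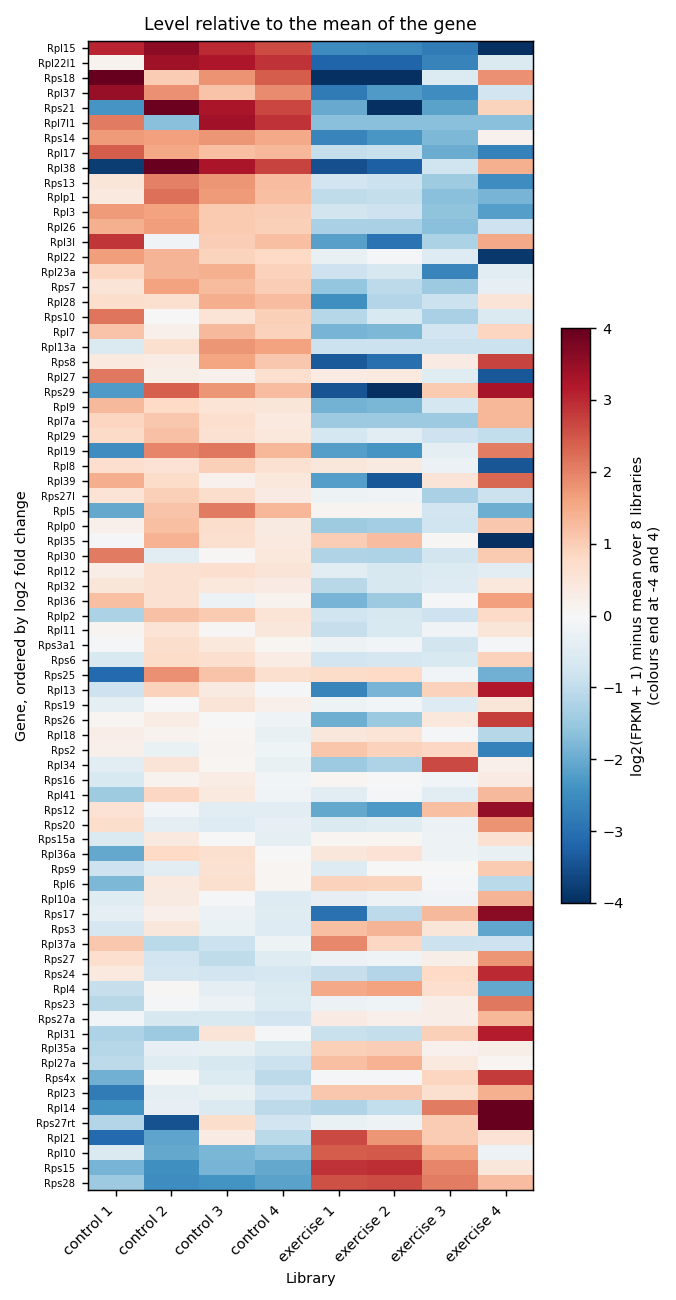
Log2(FPKM + 1) minus the mean over 8 libraries for 77 of the genes tested, ordered by log2 fold change, with 1 column per library. Genes at the top are lower and genes at the bottom higher in exercise, and in the middle exercise 4 often goes against exercise 1 and 2.

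**Figure D5:**
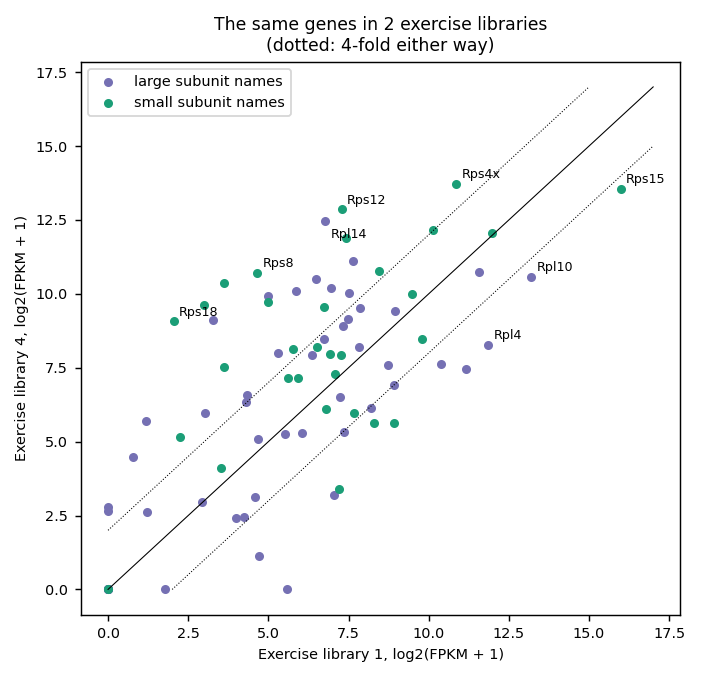
Level of ribosomal protein genes in exercise 1 (horizontal) and exercise 4 (vertical), as log2(FPKM + 1), with dotted lines at 4-fold either way. On this scale of FPKM as deposited, 30 of the genes shown lie above the upper and 13 below the lower dotted line.

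Other genes of the translation apparatus were read beside these. Of ribosomal proteins with other kinds of symbol, Rpsa fell from 166 ± 87.3 FPKM to 8.87 ± 2.74 (SD, n = 4 in each; log2 fold change -3.89; limma, Benjamini-Hochberg adjusted p = 0.0063), and Rack1, a scaffold on the small subunit, fell from 218 ± 53.8 to 50.5 ± 30.4 (-2.35; adjusted p = 0.0372). Fau, which is made as a fusion with the small-subunit protein Rps30, had 615, 571, 662 and 596 FPKM in control and 17068, 18366, 8432 and 813 in exercise (3.48; adjusted p = 0.0206). Its exercise libraries were thus ordered as those of Rps15, with exercise 4 the nearest to control.

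Of 15 other mRNAs known for a TOP tract, 14 were tested, of which 5 were lower (Eif3e, Eif3f, Eif3h, Eif4b and Nap1l1, the first 4 being initiation factors) and Npm1, a nucleolar chaperone, was higher, with a median log2 fold change of -0.71 (35.7% and 7.14% called, against 26.8% and 8.78% of all genes, whose median was -1.42). Npm1 went from 2.19 ± 1.28 to 18.5 ± 7.72 FPKM (SD, n = 4 in each; log2 fold change 2.59; limma, Benjamini-Hochberg adjusted p = 0.0187), and Eif3f from 74.8 ± 18.1 to 4.41 ± 5.72 (-4.61; adjusted p = 0.00866). Of 52 ribosome biogenesis genes, 19 were tested, of which 5 were lower (Sbds, Nop10, Polr1d, Snu13 and Nhp2) and 2 higher (Npm1 and Nop58), with a median of -1.61 (26.3% and 10.5% called). Nop10, a part of the particles that modify ribosomal RNA, had 23.4 ± 6.13 FPKM in control and no read in exercise. Of 78 mitochondrial ribosomal protein genes, which serve the organelle's own ribosome, 50 were tested, 18 were lower and 4 higher (36% and 8%), and the median log2 fold change was -2.06.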

How the data were processed

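SCs of 4 control and 4 exercise libraries were sequenced with 150-bp paired reads. The methods name Bowtie for alignment, Cufflinks for FPKM, HTSeq for counting and DESeq2 for the authors' own tests, and the submitters' processing notes give Bowtie 0.12.9, Cufflinks 2.1.1 and the build mm10. The authors deposited 1 table of FPKM values. Multiplied by gene length, all values (100%) were whole multiples of 1 step per library within a tolerance of 0.001, which gave the reads, and the library size in them is a median-of-ratios factor, so values are already scaled between libraries. Whether counting used strand is not given in the sources used here.

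Rows that share a symbol were summed, and the 4328 genes whose mean reached 1 FPKM were kept. For these limma 3.58.1 (R 4.3.3) fitted log2(FPKM + 1) by lmFit and eBayes, the latter with a trend, and p was adjusted by Benjamini-Hochberg over all of them at 0.05. A fold change on this scale understates that of low genes. Single genes were also compared by exact two-sided permutation over 70 assignments. The fit was tested on simulated data. Python 3.11.15 with numpy 2.4.6, pandas 2.3.3 and scipy 1.17.1 gave the rest. A count of 0 was taken to allow 3 reads, and depth was 1011737 to 3013354 reads per library. Positions are those of the table, on GRCm38, and 75 of the 85 genes had the same coordinates in GENCODE M21.

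The genes, companion lists and tests were chosen with earlier results of these data known. Named with values were the 10 genes with the highest mean level, up to 12 largest falls and 12 largest rises among called genes, genes under the filter, Rplp0, Rplp1, Rplp2, Rps27a, Rps6, the relatives and Rps19bp1, and the called genes of the companion lists, not all of which are described. Some genes stay in the counts but are not reported here by name or in the plots. Alternatives were a pseudocount of 0.1, other filters, quantile normalization, other scalings, no trend, array quality weights, a replicate block, the highest row of a symbol, voom, the averaged and the 5-sample fits, and leaving out each library. Deviations of libraries with the same number had correlations of -0.017, 0.039, 0.017 and 0.016, so the numbers were not taken as pairs.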

Additional observations from a re-analysis of the deposited data

Results flagged for a closer look

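In 11 of 59 groups of 4 libraries tested, the value of 1 library lay farther from the others than Dixon's criterion allows, where chance gives about 1 in 20 groups of independent libraries, or 2.95. The exercise libraries are not shown to be independent, since exercise 1 and 2 were much alike and exercise 3 mostly lay between exercise 1 and 4, so that rate need not hold for them. In FPKM as deposited, the library was exercise 4 in 10 of them, and it was the highest in each. There Rps4x had 13607 FPKM (1861 to 3596 in the others), Rps27 4541 (1128 to 1568), Rplp0 1033 (183 to 281), Rps14 755 (105 to 190) and Rplp2 476 (155 to 179). In the same library Rps6 had 295 FPKM (90.5 to 102), Rps27a 246 (112 to 121), Rpl37 80.0 (18.6 to 28.2), Rpl3l 21.1 (0 to 2.20) and Rpl22l1 5.23 (0 to 0.453). The remaining one was Rpl27 in control 1, with 7930 FPKM (2081 to 2871). Exercise 4 also had the highest mitochondrial share of reads, 68.7%, and its FPKM summed over all genes to 2488142 against 331669 to 637095 in exercise 1 to 3. As a percent of reads outside the mitochondrial genome, a scale chosen after seeing the data, 0 of the 11 passed Dixon's criterion, and exercise 4 was no longer the highest for Rps27a. These distances thus depend on the scaling of the library.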

How the results depend on the processing

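All 22 called genes kept their direction in each fit that tested them (Rpl13a and Rpl7l1 were not tested with at least 1 FPKM in 4 libraries, nor Rpl13a without control 3), and 9 of the lower, among them Rpl15, Rpl17, Rpl22l1, Rpl26, Rpl37, Rplp1, Rps13 and Rps14, and 2 of the higher, Rps15 and Rps28, kept their call in each fit but that of 5 samples. The count of 17 lower genes became 11 with quantile normalization (8.66% of all genes), 44 with array quality weights (50%), 10 with exercise 1 and 2 averaged, 0 in the 5-sample fit, and 9 to 26 when each library was left out (11.25% to 32.5%, against 8.14% to 37.6% of all genes, where the 26 came without exercise 4 and stand against 19.5%, and the 37.6% came without control 1, with 19 lower). The count of 5 higher genes became 3 without a filter, 2 with a constant sum, with all reads or with voom, 13 with array quality weights (18.8% of all genes), 3 with the replicate block (6.24%), 3 with exercise 1 and 2 averaged, 0 with 5 samples, and 3 to 6 when each library was left out (3.77% to 13.1%). The replicate block gave 12 lower genes (15%, against 18.2% of all genes). Among the fits that left out 1 library, the lowest counts came without control 4 or exercise 3 (9 lower and 3 higher), the highest without exercise 4 (26 and 6), and leaving out control 3, exercise 1 or exercise 2 gave 10 lower. The median log2 fold change of -0.89 became -0.30 with quantile normalization, -1.51 with a constant sum and -1.37 with voom, where the median of all genes was -0.44, -1.89 and -2.22 against -1.42. The median lay above that of all genes in 20 of 23 fits, and not with no filter, at least 1 FPKM in 4 libraries or array quality weights. The difference in read share, 5.25 points, became 0.714 without Rps15 and 1.75 without Rps15 and Rplp1, both chosen after seeing the data. Rpl27, not called, changed sign with array quality weights (log2 fold change 0.0082, limma Benjamini-Hochberg adjusted p = 0.986). Over all 80 genes tested, 27 changed sign in at least 1 of the 22 alternatives, and 0 of these were called. For the 30 genes followed singly through the alternatives, of which Rpl27 alone changed sign, 562 of the values kept their direction and call, 75 lost the call and 21 gained it. The cause of these shifts was not tested. Depth limits the exercise libraries most, where 13 to 22 of the 85 genes had under 10 reads.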

Other observations

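Reads on pseudogenes of ribosomal proteins were few in sum, but for Rpl17, Rpl23a and Rpl7a (86 reads against 270 on its pseudogenes) they outnumbered those of the gene. The table lists 276 pseudogenes of 58 of the genes, 133 of them with reads, and they took 0.305% of reads outside the mitochondrial genome in control and 0.305% in exercise by means, with 0.246% to 0.328% in control and 0.260% to 0.404% in exercise libraries, and 0.272% and 0.190% of all reads. No test was made of these shares. Across the 80 genes tested, which share libraries, the log2 fold change had a Pearson r of 0.23 with the mean log2 level, 0.11 with gene length and -0.03 with the number of pseudogenes. Exon bases were shared with another gene that had reads in 7 genes (Rpl5, Rpl12, Rpl15, Rpl32, Rpl35, Rps18 and Rps25).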
